A study of Mus musculus with 20 samples.

Results

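Genes of the ubiquitin and proteasome system were compared between the prostates of 5 inbred mouse strains. Array elements, the spots of the array, were taken where the platform annotation gave them a single gene symbol of the families searched for. These were proteasome subunits, activators and other Psm genes (Psma to Psmg), enzymes of the Ube or Usp series and F-box proteins. Cullins, Uch hydrolases, SUMO and Skp proteins were searched for as well. Usp18 was left out by the rule (1 element), and 17 further elements that carried several symbols were not named. This gave 137 of the 11552 elements, from 101 of 5827 genes with a single symbol, and all 137 had at most 2 of 20 values missing and entered the test. No Psmf or Psmg gene and no Uch hydrolase was among them. Of the 101 genes, 74 had 1 element and 27 had several, which made up 63 elements and are not independent of each other.

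Each sample was a pool of prostate RNA, in equal amounts from the dorsal, lateral, ventral and anterior lobes, of 3 untreated male mice aged 8 to 9 weeks. The strains were C57BL/6J, 129X1/SvJ, FVB/NJ, BALB/c and DBA/2, with 4 pools of separate mice each (12 mice per strain), and all are inbred wild-type strains without a transgene. Per the study's methods, the BALB/c and DBA/2 mice came from another breeder than the other 3 strains, so that breeder and strain cannot be told apart where strains of both breeders are compared. BALB/c and DBA/2 share a breeder, as do the other 3 strains. Amplified RNA of each pool was hybridized together with a reference made from RNA of all samples, and each value is a log2 ratio of sample over reference. A value of 0 therefore means the level of the mixed strains, and values of different genes cannot be set against each other as levels.

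The ubiquitin system marks proteins for removal. An activating enzyme (E1) passes ubiquitin to a conjugating enzyme (E2), and a ligase (E3), often a cullin joined through Skp1 to an F-box protein that holds the substrate, moves it to the target, while deubiquitinating enzymes take it off again. The 26S proteasome, a barrel (the 20S core of alpha and beta subunits) capped by the 19S particle with its ring of ATPases, unfolds and cuts the marked proteins. Secretory tissues such as the prostate, whose luminal cells make large amounts of protein, depend on it to clear misfolded chains.

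Per array, 10998 to 11251 elements carried a value, and the medians of the arrays lay between -0.01 and 0.02. The arrays of 129X1/SvJ were the most spread, with a median absolute deviation of 0.29 to 0.44 on the log2 scale, against 0.16 to 0.29 in the other strains, and the fit assumed 1 spread for all strains. Every strain had 2 pools in Cy3 and 2 in Cy5. Since whole tissue was measured, fewer cells of a type and less RNA per cell cannot be told apart.

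Over the 5 strains, 7 of the 137 elements (5.11%), of 7 genes, passed limma's moderated F test at an adjusted p of at most 0.1, against 11.3% of the 11159 elements tested on the array. At an unadjusted p under 0.05 they were 16 (11.7%), against 20% of all elements. The difference between the highest and the lowest strain mean had a median of 0.31 over the 137 elements and 0.32 over all elements tested. The 7 genes were Psmb6 and Psmb4 of the 20S core, the activator Psme4, the conjugating enzyme Ube2w, the F-box gene Fbxo3 and the deubiquitinating enzymes Usp43 and Usp48. Without the 129X1/SvJ arrays, over 4 strains, 13 elements passed, against 13.2% of all elements. Of the 7, 5 were among them, while Psme4 (element 6465) and Ube2w were not. The count moved with single arrays of 129X1/SvJ: it was 14 (10.2%, against 15.7% of all elements) without pool 4 and 11 (8.03%, against 13.6%) without pool 1, and 23 with array weights (16.8%, against 25.1%). The share among these elements was below that of all elements under each alternative run.

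**Figure D1:**
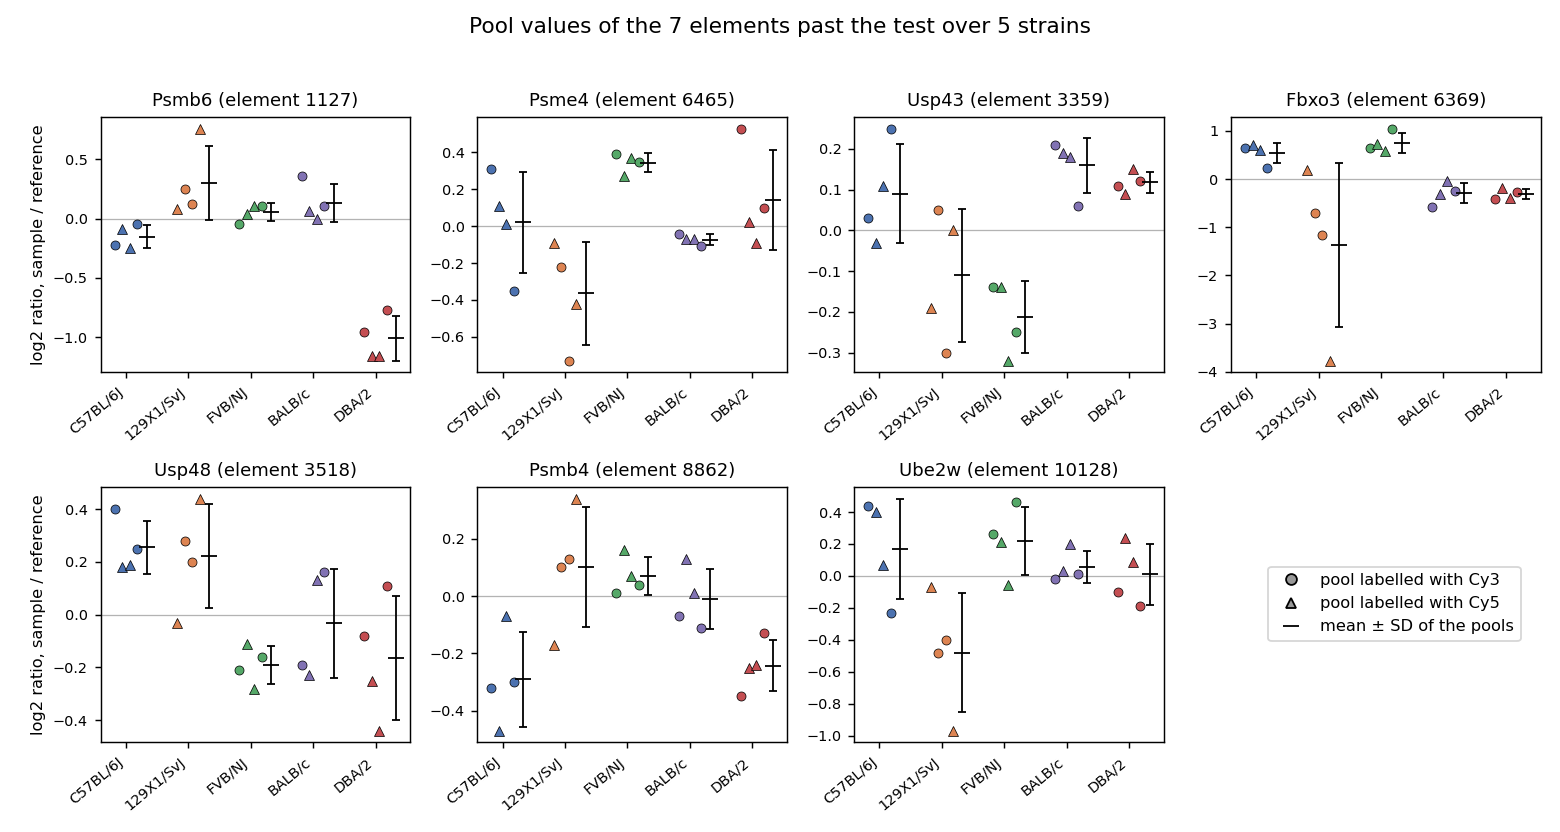
Log2 ratios (sample over reference, vertical axis) of the 7 elements past the test over 5 strains, by strain (horizontal axis, 4 pools each); circles are pools labelled with Cy3, triangles pools labelled with Cy5, and the bar gives the mean ± SD. The DBA/2 pools of Psmb6, at -1.16 to -0.77, lie below all 16 other pools, and 1 pool of 129X1/SvJ lies far below the rest for Fbxo3 (-3.77).

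Psmb6 was the member that differed most clearly. It encodes the beta1 subunit of the constitutive 20S core, which cuts after acidic residues. Its element (1127) had log2 ratios of -0.96, -1.16, -1.16 and -0.77 in the DBA/2 pools, against -0.22, -0.09, -0.25 and -0.05 in C57BL/6J, and 0.08, 0.25, 0.12 and 0.76 in 129X1/SvJ. The pools of FVB/NJ gave -0.05, 0.04, 0.11 and 0.11, those of BALB/c 0.36, 0.06, 0.00 and 0.11. All 4 DBA/2 pools lay below all 16 pools of the other strains, which was the case for 0.305% of the elements tested, and the other pools ran from -0.25 in C57BL/6J to 0.76 in 129X1/SvJ. The mean was -1.01 ± 0.19 in DBA/2 (SD, n = 4), lower by 1.10 ± 0.11 (SE) than the average of the other 4 strains (2.14-fold; limma, adjusted p = 1.93e-06). Its adjusted p over the 5 strains was 7.23e-06, and 2.05e-06 without the 129X1/SvJ arrays.

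Each pair of strains was also compared on its own 8 arrays. Psmb6 was higher by 0.86 ± 0.11 in C57BL/6J than in DBA/2 (adjusted p = 0.00207), by 1.32 ± 0.18 in 129X1/SvJ than in DBA/2 (adjusted p = 0.00658), by 1.06 ± 0.11 in FVB/NJ than in DBA/2 (adjusted p = 0.000237) and by 1.15 ± 0.12 in BALB/c than in DBA/2 (adjusted p = 0.000252; limma, log2 scale, SE). All 4 calls held with any 1 of the 8 pools left out (adjusted p of at most 0.0381). No pair without DBA/2 passed for this element, and their adjusted p ran from 0.264 to 0.890. Psmb6 was also higher by 0.55 ± 0.11 (SE) in 129X1/SvJ than the average of the others (adjusted p = 0.00353), an average that contains DBA/2, and the 129X1/SvJ pools overlapped those of FVB/NJ and BALB/c. Its difference between dyes was -0.05 (adjusted p = 0.721), and the elements next to it on the array differed by 0.10 and -0.09 between 129X1/SvJ and DBA/2, against 1.32 for Psmb6 itself.

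The beta1 site is taken over by Psmb9 when the immunoproteasome forms. Psmb9 (element 9909) had 0.24, 0.17, -0.36 and 0.07 in the DBA/2 pools, and its strain means ran from -0.17 in FVB/NJ to 0.08 in 129X1/SvJ (adjusted p = 0.680 over 5 strains). The DBA/2 pools of Psmb9 overlapped those of the other strains. A cDNA element can also bind transcripts of related genes, and the position of a difference along a transcript is not resolved by it.

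Psmb6 and Psmb4 were the 2 core subunits that passed, so the 250 bases before their start sites are shown, from RefSeq (GRCm38.p6), 5′ to 3′ on the strand of the gene, with motif matches in capitals: TGACNNNGC, the core of the antioxidant response element, to which the proteasome regulator NFE2L1 is known to bind; CCAAT; and GGGCGG, the GC box, all on both strands. Psmb6 lies at chr11:70525107-70525356 (plus strand) and Psmb4 at chr3:94886959-94887208 (minus strand).
Psmb6: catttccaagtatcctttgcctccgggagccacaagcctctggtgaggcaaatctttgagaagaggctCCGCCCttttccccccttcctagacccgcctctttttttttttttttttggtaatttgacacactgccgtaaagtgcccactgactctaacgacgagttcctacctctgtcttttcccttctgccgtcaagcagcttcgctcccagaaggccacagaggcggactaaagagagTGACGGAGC
Psmb4: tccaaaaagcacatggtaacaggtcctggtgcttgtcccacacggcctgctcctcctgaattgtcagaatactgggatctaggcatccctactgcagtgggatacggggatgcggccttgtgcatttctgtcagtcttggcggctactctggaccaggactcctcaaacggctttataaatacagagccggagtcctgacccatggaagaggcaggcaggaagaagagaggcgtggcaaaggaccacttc
The stretch of Psmb6 holds 1 match to TGACNNNGC at its end and 1 GC box on the other strand, which do not overlap, and that of Psmb4 holds none of these motifs. By gene identifier, 101 of 101 genes matched the gene table and 83 had a promoter sequence, 20 of them genes of the 26S proteasome. TGACNNNGC was found before 3 of these 20 genes (15%), against 11.5% of 27025 genes. CCAAT was found before 9 of the 20 (45%), against 37.5% of all, and GGGCGG before 12 of the 20 (60%), against 35.4% of all. Among all 83 member genes GGGCGG was found before 58 (69.9%), a larger share than in the 26S proteasome. CCAAT was found before 26 of the 83 (31.3%) and TGACNNNGC before 11 (13.3%). These are matches of letters in 1 window, and the sequence is that of the C57BL/6J reference genome, not of DBA/2.

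Psmb4, the beta7 subunit, which closes the beta ring and has no cutting site of its own, varied less. Its element (8862) had -0.32, -0.47, -0.07 and -0.30 in C57BL/6J, -0.35, -0.25, -0.24 and -0.13 in DBA/2 and -0.17, 0.10, 0.13 and 0.34 in 129X1/SvJ. In FVB/NJ it had 0.01, 0.16, 0.07 and 0.04, and in BALB/c -0.07, 0.13, 0.01 and -0.11. The C57BL/6J and DBA/2 pools lay at the low end and overlapped single pools of 129X1/SvJ and BALB/c, while all FVB/NJ pools lay above them. The highest mean (129X1/SvJ) was 1.31-fold the lowest (C57BL/6J), with an adjusted p of 0.0578 over 5 strains. Leaving out 1 pool at a time moved this adjusted p between 0.0166 and 0.126, and the call was lost without C57BL/6J pool 1, 2 or 4 or DBA/2 pool 1, 2 or 3. No difference of 1 strain from the others or between a pair of strains passed for Psmb4.

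The subunits of the 26S proteasome, Psmb6 included, showed mostly small differences that ran largely one way in DBA/2 and the other way in BALB/c. Not counted were the 4 elements of the inducible or tissue-specific beta subunits Psmb8, Psmb9, Psmb10 and Psmb11, which ran otherwise. Of these 4, 1 lay below the other strains in DBA/2 (median 0.06), and 0 were higher in BALB/c than in DBA/2 (median -0.08). Of the 31 elements of 25 genes of the constitutive 20S core and the 19S particle, 28 (90.3%) lay below the average of the other 4 strains in DBA/2, against 48.2% of all elements tested. All 14 elements of the constitutive core were among these 28 of the 31. The median difference of the 31 was -0.15 on the log2 scale, against 0.01 over all elements, with a range from -1.10 (Psmb6) to 0.03. DBA/2 held the lowest strain mean for 17 of the 31 elements (54.8%, against 15.7% of all elements) and the highest for 0 (against 19.1%). BALB/c held the highest for 14 (45.2%, against 16.8% of all elements). In BALB/c, 29 of the 31 lay above the average of the other strains and 2 (6.45%) below it, against 49.9% below among all elements, with a median difference of 0.13, against 0 over all elements. The other 3 strains leaned less. In C57BL/6J 22 of the 31 lay below the average of the others (71%, against 48.9% of all elements). In 129X1/SvJ 10 did (32.3%, against 52.8%), and in FVB/NJ 16 (51.6%, against 49.2%). 129X1/SvJ held the highest mean for 12 (38.7%, against 24.2%). Of the single differences of DBA/2 and BALB/c, that of Psmb6 in DBA/2 passed the test. At an unadjusted p under 0.05, limma gave 6 of the 31 as lower in DBA/2 (against 5.43% of all elements) and 5 as higher in BALB/c (against 4.91%). Each of these averages holds the other strain, so that low values in DBA/2 raise the difference of BALB/c. Set against the mean of C57BL/6J, 129X1/SvJ and FVB/NJ alone, 27 of the 31 were lower in DBA/2 (87.1%, against 48.1% of all elements; median -0.12, against 0.01) and 29 were higher in BALB/c (93.5%, against 51.3%; median 0.10, against 0).

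**Figure D2:**
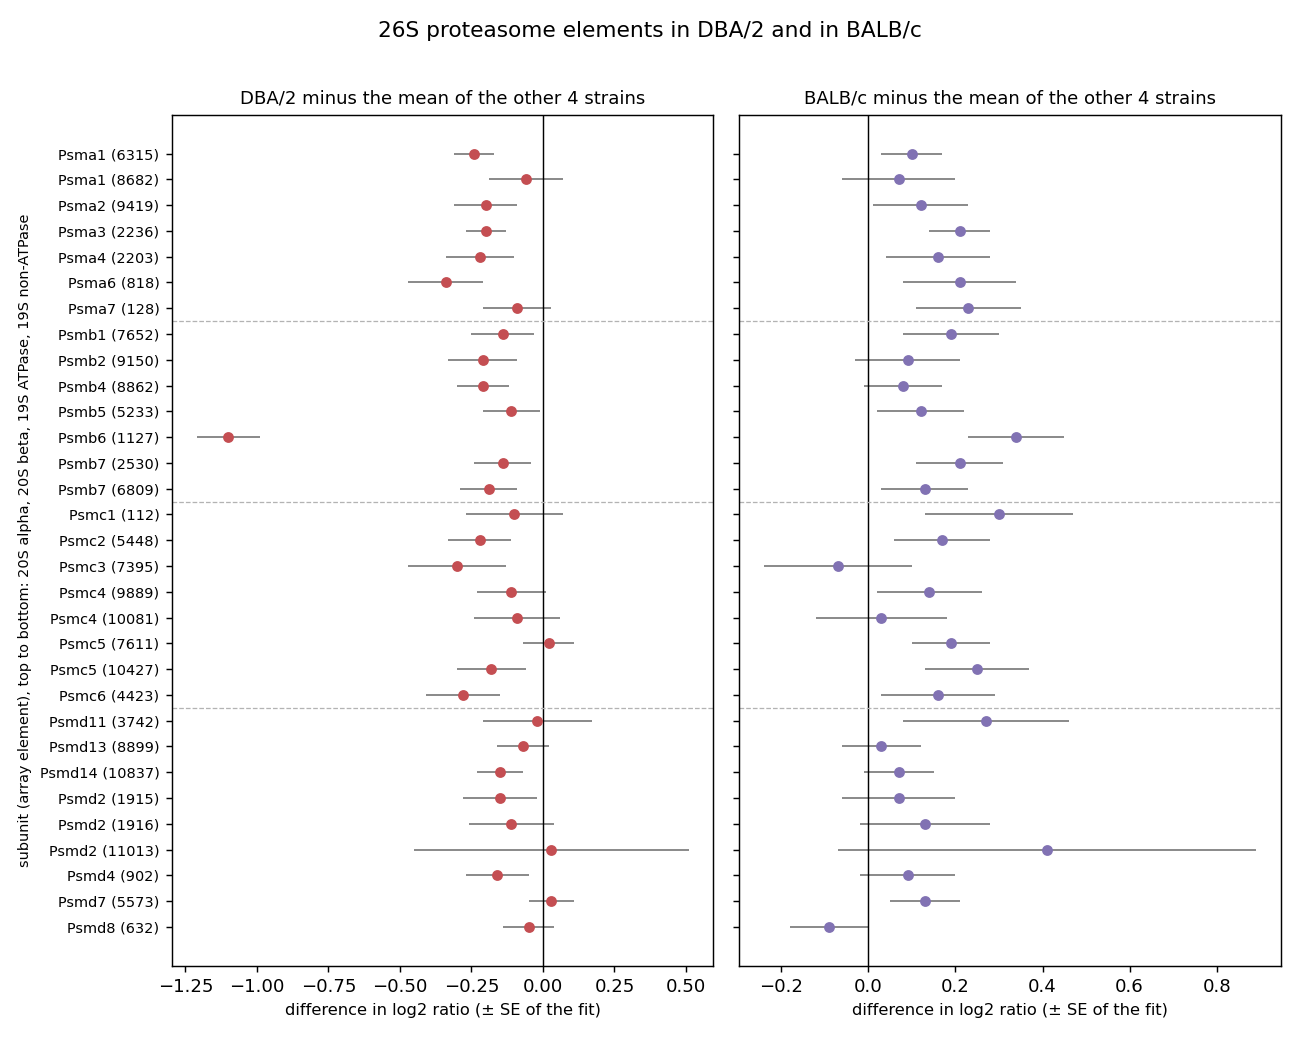
Difference in log2 ratio (horizontal axis, ± SE of the limma fit) of each of the 31 elements of the 26S proteasome between DBA/2 (left panel) or BALB/c (right panel) and the mean of the other 4 strains; element numbers are in parentheses and dashed lines part the subunit groups. In DBA/2 28 points lie left of 0 with Psmb6 far out at -1.10, and in BALB/c 29 lie right of 0.

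Among the alpha subunits, which form the outer rings of the core, Psma3 (element 2236) had the lowest p. It had -0.31, -0.25, -0.11 and -0.11 in the DBA/2 pools, and 0.06, 0.20, 0.14 and 0.16 in the BALB/c pools. In the other strains it had -0.13, -0.02, -0.03 and -0.01 (C57BL/6J), -0.22, -0.05, 0.08 and -0.19 (129X1/SvJ) and 0.04, 0.09, 0.00 and 0.05 (FVB/NJ). The DBA/2 and BALB/c pools of Psma3 did not overlap each other, but the DBA/2 pools overlapped those of C57BL/6J and 129X1/SvJ, and the element did not pass over 5 strains (adjusted p = 0.112). Psma6 (element 818) had -0.68, -0.31, -0.17 and 0.02 in DBA/2, a difference of -0.34 ± 0.13 (SE) from the other strains with an adjusted p of 0.288. Psma1 (element 6315) had -0.31, -0.09, -0.30 and -0.16 in DBA/2, a difference of -0.24 ± 0.07 with an adjusted p of 0.135, while its second element (8682) differed by -0.06 ± 0.13 with an adjusted p of 0.963. The DBA/2 pools of Psma6 and of both Psma1 elements overlapped those of other strains.

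The 19S particle recognizes ubiquitin chains and feeds the protein into the core. Of its 8 ATPase elements (Psmc1 to Psmc6) and 9 non-ATPase elements (Psmd), 0 passed over 5 strains, and 0 had an unadjusted p under 0.05 in limma's F test. Psmc3 (element 7395) and Psmc6 (element 4423), ATPases of the ring, lay furthest from 0 among these, at -0.30 ± 0.17 and -0.28 ± 0.13 (SE) in DBA/2 minus the other strains, with adjusted p of 0.603 and 0.461. Psmd7 (element 5573) and 1 element each of Psmc5 (7611) and Psmd2 (11013) were the 3 elements above 0 in DBA/2, at 0.03, 0.02 and 0.03. This Psmd2 element had -3.8 in 129X1/SvJ pool 4, against 0.09, 0.31 and 0.73 in the other pools of that strain. That pool lowered the average it was set against. Without 129X1/SvJ pool 4, 30 of the 31 elements lay below the others in DBA/2. Between BALB/c and DBA/2 directly, 30 of the 31 elements of the 26S proteasome were higher in BALB/c (96.8%, against 48.1% of all elements), with a median difference of 0.24, against -0.01 over all. At an unadjusted p under 0.05, 11 of the 31 (35.5%) were higher in BALB/c than in DBA/2, against 8.23% of all elements, and Psmb6 was the 1 that passed after adjustment. In the 106 elements of members outside the 26S proteasome, 55 (51.9%) lay below the others in DBA/2, with a median of -0.01.

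The shift parted the DBA/2 pools from the BALB/c pools and from no other strain. The median log2 ratio of the 31 elements was -0.08, -0.20, -0.21 and -0.01 in the DBA/2 pools and 0.16, 0.05, 0.01 and 0.16 in the BALB/c pools. It was -0.02, -0.22, -0.10 and 0.04 in C57BL/6J, -0.01, 0.14, 0.15 and -0.03 in 129X1/SvJ and 0.02, 0.00, -0.20 and 0.11 in FVB/NJ. The 4 DBA/2 medians lay below the 4 BALB/c medians but among those of the other 3 strains. Within 1 dye they also lay below those of 129X1/SvJ. These were -0.08 and -0.01 against 0.14 and 0.15 with Cy3, and -0.20 and -0.21 against -0.01 and -0.03 with Cy5. Those of C57BL/6J overlapped with DBA/2 in both dyes. Those of FVB/NJ lay above DBA/2 with Cy3 (0.02 and 0.11) but reached -0.20 with Cy5. The subunits share these arrays, so their agreement in direction is not a count of independent measurements. Leaving out 1 pool at a time gave 26 to 30 of the 31 elements below the other strains in DBA/2 and 25 to 30 above them in BALB/c, and without the 129X1/SvJ arrays there were 29 of each.

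**Figure D3:**
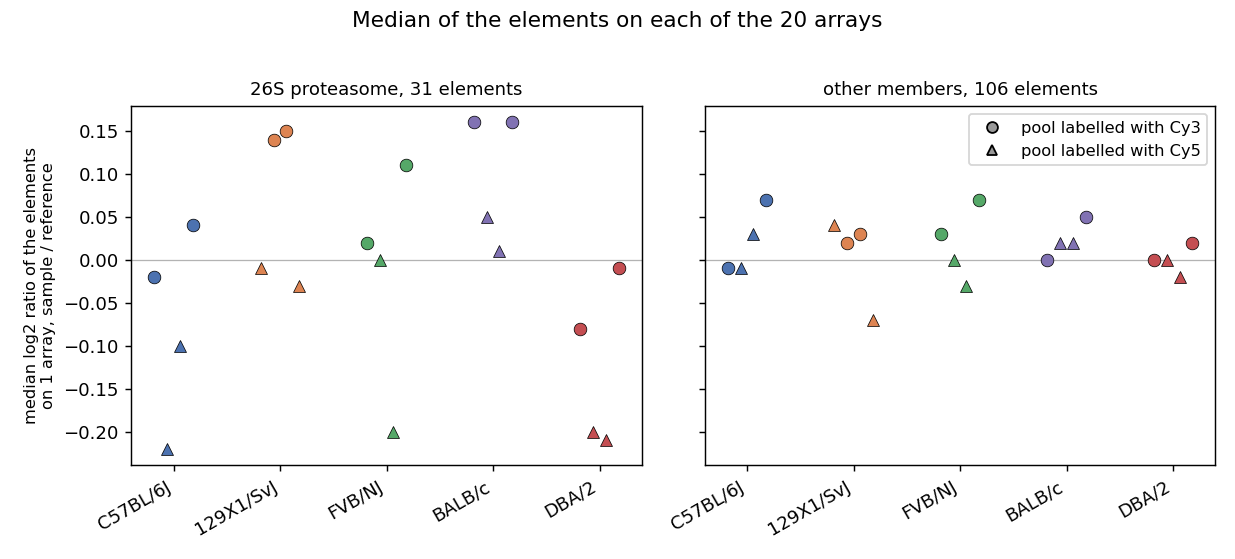
Median log2 ratio (sample over reference, vertical axis) on each of the 20 arrays, for the 31 elements of the 26S proteasome (left) and the 106 other elements (right), by strain; circles are pools labelled with Cy3 and triangles pools labelled with Cy5. For the 26S proteasome the DBA/2 medians run from -0.21 to -0.01 and the BALB/c medians from 0.01 to 0.16, and the Cy5 pools lie below the Cy3 pools of the same strain.

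The dye of the sample also went with differences among these elements, in the 26S proteasome mostly in the 19S particle. Of the 137 elements, 30 (21.9%) differed between pools labelled with Cy5 and with Cy3 (limma with strain and dye as terms, adjusted p under 0.05), against 15.9% of all elements, and 26 of them were lower with Cy5 (19%, against 7.37% of all) and 4 higher (2.92%, against 8.57%). In the 26S proteasome 14 of 31 elements (45.2%) differed by dye, 13 of them lower with Cy5, with a median difference of -0.15. These were 6 of the 8 ATPase and 4 of the 9 non-ATPase elements of the 19S particle, and 4 of the 14 constitutive core elements. The median dye difference was -0.26, -0.23 and -0.05 in these groups. Psmc1 (element 112) was lower by 0.49 with Cy5 (adjusted p = 0.000323) and Psmd2 (element 1916) by 0.45 (adjusted p = 0.000405). Outside these 31, Psmd9 (element 10696), a chaperone of 19S assembly, was lower by 0.52 (adjusted p = 0.000993). None of the 7 elements past the test over 5 strains differed by dye (adjusted p of 0.318 or more). Each strain holds 2 pools of each dye. Within the Cy3 arrays alone 26 of the 31 elements were below the others in DBA/2 and 26 above them in BALB/c, and within the Cy5 arrays alone 27 and 26.

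Some lists of other cell types and glands also differed between strains, and DBA/2 set against the other strains had called elements in the skeletal muscle list alone (2). The seminal vesicle list (11 elements of 7 of 9 genes, 7 past the test over 5 strains) had a median log2 ratio of -5.15 to -3.46 in the DBA/2 pools and 1.23 to 2.03 in the BALB/c pools. The pools of C57BL/6J gave -5.15 to -1.20, those of 129X1/SvJ -5.49 to -0.84 and those of FVB/NJ -4.0 to -0.18. BALB/c alone lay above 0 in this list, and DBA/2 lay within the range of C57BL/6J and 129X1/SvJ. The skeletal muscle list (8 elements of 6 of 8 genes, 3 past the test) ran from 0.00 to 0.35 in DBA/2 and from -0.34 to 0.11 in BALB/c. The luminal epithelium list (26 elements of 7 of 10 genes, 5 past the test) ran from -0.68 to 0.17 in DBA/2 and from -0.20 to 0.62 in BALB/c, and overlapped between them. The smooth muscle list (8 elements of 6 of 7 genes, 0 past the test) ran from 0.04 to 0.22 in DBA/2 and from -0.12 to 0.04 in BALB/c. The other lists had 1 to 3 genes measured: 2 of 2 leukocyte and 2 of 3 adipose elements passed over 5 strains, and 0 of 2 basal epithelium, 0 of 5 neuron and 0 of 4 endothelium elements did. The leukocyte list ran from -0.32 to 0.20 in DBA/2 and from 0.22 to 0.44 in BALB/c, and the adipose list from -0.14 to 0.12 in DBA/2 and from 0.07 to 0.28 in BALB/c. The part of these tissues in the proteasome differences was not tested.

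The inducible subunits, which replace the 3 cutting subunits in immune cells and under interferon, did not pass. Psmb8 (element 10643), the inducible beta5 subunit, had strain means from -0.18 in FVB/NJ to 0.21 in DBA/2 (adjusted p = 0.495). Psmb10 (element 6876), the inducible beta2 subunit, had means from -0.13 in C57BL/6J to 0.21 in 129X1/SvJ (adjusted p = 0.500). Both were lower in Cy5 than in Cy3 pools, by 0.30 (adjusted p = 0.0289) for Psmb8 and by 0.32 (adjusted p = 0.00702) for Psmb10. Psme2, a subunit of the interferon-induced PA28 activator, had means from -0.22 in C57BL/6J to 0.12 in 129X1/SvJ (adjusted p = 0.674), and Psme3, the nuclear PA28 subunit, from -0.12 in 129X1/SvJ to 0.14 in DBA/2 (adjusted p = 0.936). A change of about 0.3 on this scale, the size of these ranges, was within the spread of the pools.

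Psme4 encodes PA200, a large activator that caps the core without needing ubiquitin and is best known from the testis. Its element 6465 had -0.09, -0.22, -0.73 and -0.42 in the 129X1/SvJ pools, against 0.39, 0.27, 0.37 and 0.35 in FVB/NJ. It had 0.31, 0.11, 0.01 and -0.35 in C57BL/6J, -0.04, -0.07, -0.07 and -0.11 in BALB/c, while the DBA/2 pools had 0.53, 0.02, -0.09 and 0.10. The 129X1/SvJ and FVB/NJ pools did not overlap, and pools of the other strains lay between and across them. It was lower by 0.47 ± 0.12 (SE) in 129X1/SvJ than in the average of the other strains (adjusted p = 0.0233, against 2.74% of all elements lower there), a call lost without 129X1/SvJ pool 3 (adjusted p = 0.106). It was higher by 0.42 ± 0.09 in FVB/NJ than in BALB/c (adjusted p = 0.0357), a call that held when FVB/NJ pool 2 was left out and was lost without any other of the 8 pools (adjusted p up to 0.11). Element 6273, matched to the same sequence, followed it over the 20 arrays (r = 0.79) with a smaller range of 0.42 between strain means and an adjusted p of 0.549. Element 9847, matched to another sequence, did not follow it (r = -0.05; adjusted p = 0.597), and with the 3 elements averaged the adjusted p over 5 strains was 0.254. Correlations here are over arrays that share strain and dye and are given as a description.

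**Figure D4:**
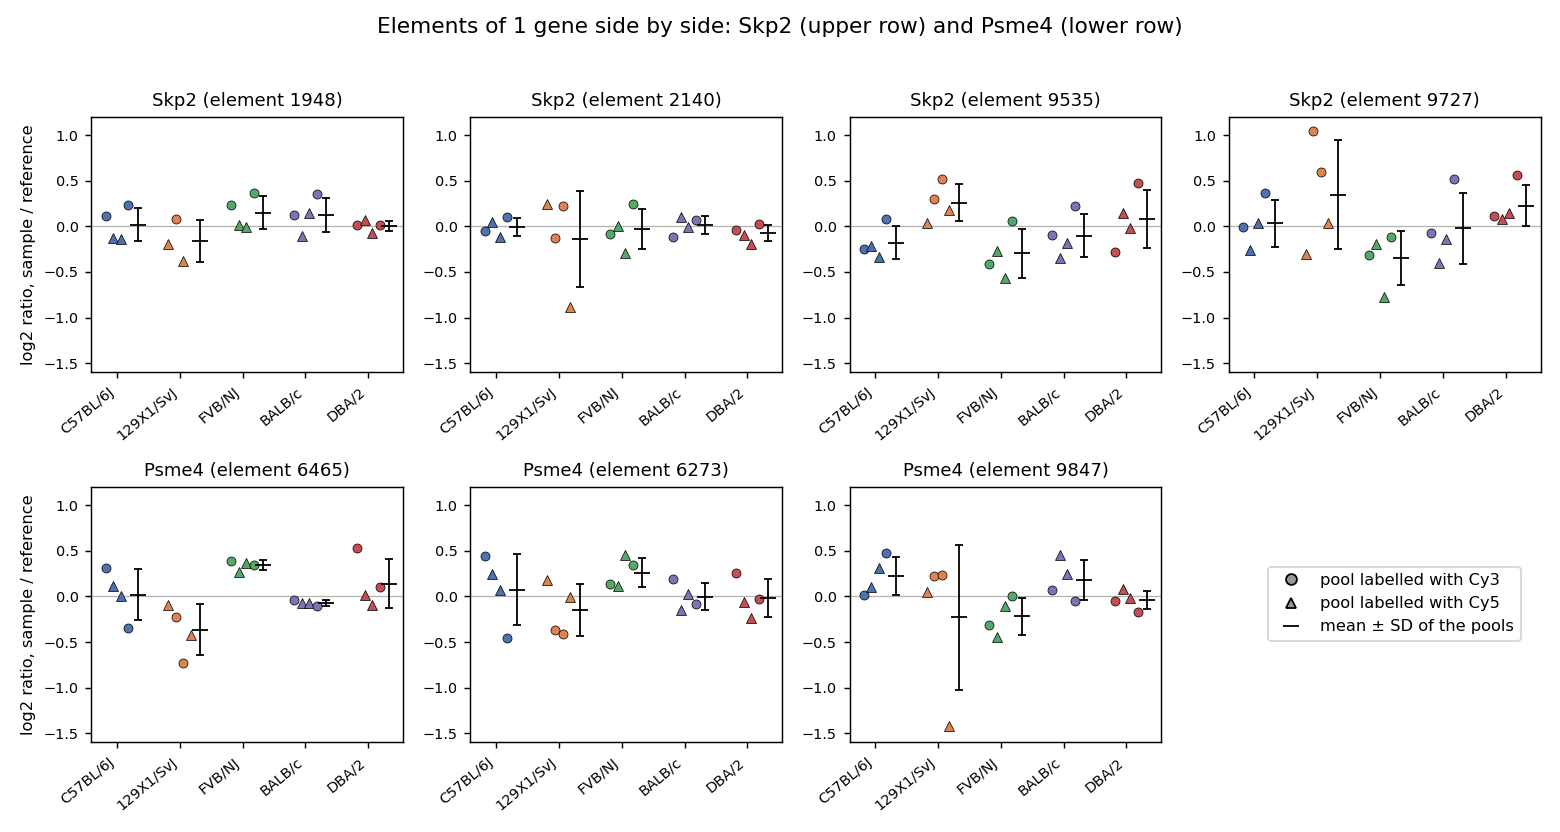
Log2 ratios (sample over reference, vertical axis, same scale in every panel) of the 4 elements of Skp2 and the 3 elements of Psme4 by strain; circles are pools labelled with Cy3, triangles pools labelled with Cy5, and bars give the mean ± SD of the pools. For Skp2, elements 9535 and 9727 have their highest mean in 129X1/SvJ and their lowest in FVB/NJ, whereas elements 1948 and 2140 have their lowest mean in 129X1/SvJ.

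Among the conjugating enzymes, 1 of 24 elements of 16 genes passed. Ube2w, which attaches ubiquitin to the amino terminus of proteins, had -0.07, -0.48, -0.40 and -0.97 in the 129X1/SvJ pools (element 10128). It had 0.44, 0.40, 0.07 and -0.23 in C57BL/6J, 0.26, 0.21, -0.06 and 0.46 in FVB/NJ, -0.02, 0.03, 0.20 and 0.01 in BALB/c, and the DBA/2 pools had -0.10, 0.24, 0.09 and -0.19. It was lower by 0.59 ± 0.14 (SE) in 129X1/SvJ than in the other strains (1.51-fold, adjusted p = 0.0142), although pool 1 of 129X1/SvJ lay among the pools of the other strains. The adjusted p over 5 strains was 0.0645, and it missed the threshold, at up to 0.165, without 129X1/SvJ pool 2, 3 or 4 or FVB/NJ pool 1 or 4. Without 129X1/SvJ pool 4 the difference of 129X1/SvJ did not pass either (adjusted p = 0.0574). A second element of Ube2w (1720) did not pass (adjusted p = 0.711). Ube2f, an E2 for the ubiquitin-like protein NEDD8, came next in this class, with an adjusted p of 0.102 and a range of 0.53 between its lowest mean in C57BL/6J and its highest in BALB/c. Of the 4 elements of Ube3 and Ube4 ligases, 0 passed, and Ube3b had the lowest adjusted p (0.420).

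Fbxo3 had the widest range of strain means of all 137 elements. It encodes an F-box protein, the substrate-holding part of a cullin ligase. Its element (6369) had 0.64, 0.72, 0.58 and 1.05 in FVB/NJ and 0.64, 0.70, 0.60 and 0.23 in C57BL/6J, against -0.57, -0.30, -0.05 and -0.24 in BALB/c. The DBA/2 pools had -0.41, -0.19, -0.40 and -0.27. In 129X1/SvJ it had 0.19, -0.70, -1.17 and -3.77. The FVB/NJ and C57BL/6J pools lay above 0 and the BALB/c and DBA/2 pools below it, without overlap, and the 129X1/SvJ pools were scattered. Leaving 129X1/SvJ aside, this split is also that of the breeders, so strain and breeder cannot be told apart for it. Within a breeder, limma gave an adjusted p of 0.566 for C57BL/6J against FVB/NJ and 0.949 for BALB/c against DBA/2. Fbxo3 was higher by 1.06 ± 0.12 in FVB/NJ than in DBA/2 (adjusted p = 0.000408), by 1.04 ± 0.14 in FVB/NJ than in BALB/c (adjusted p = 0.00169), by 0.86 ± 0.12 in C57BL/6J than in DBA/2 (adjusted p = 0.00278) and by 0.83 ± 0.14 in C57BL/6J than in BALB/c (adjusted p = 0.00850; log2 scale, SE). These 4 calls held with any 1 pool left out (adjusted p of at most 0.0353). Over 5 strains its adjusted p was 0.0415; it was 1.74e-05 without the 129X1/SvJ arrays and 0.000491 without 129X1/SvJ pool 4. The difference of -1.53 ± 0.39 (SE) between 129X1/SvJ and the other strains (adjusted p = 0.0239) passed with each pool left out in turn (adjusted p of 0.00165 to 0.0445). Its size hung on pool 4: the range between the highest and lowest mean was 2.11 with that pool and 1.30 without it. With array weights, under which pool 4 of 129X1/SvJ counted 0.156, none of the 137 elements was lower in 129X1/SvJ.

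Of the other 23 F-box elements, 0 passed over 5 strains. Fbxo2, which binds glycoproteins with high-mannose sugars, and Fbxo44, of the same subfamily, are direct neighbours on chromosome 4 in the gene table of GRCm38.p6; both were named after their values were seen, since they passed in pairs of strains. Fbxo2 (element 557) had -0.48, -0.29, -0.42 and -0.24 in the DBA/2 pools, and 0.10, -0.03, -0.04 and 0.15 in BALB/c. Fbxo44 (element 7893) had -0.39, -0.35, -0.19 and -0.17 in DBA/2, against 0.05, 0.23, 0.22 and 0.05 in BALB/c and 0.10, 0.36, 0.30 and 0.23 in FVB/NJ. For both genes the DBA/2 pools lay below the BALB/c pools without overlap, and they overlapped those of C57BL/6J and 129X1/SvJ. Fbxo2 was higher by 0.40 ± 0.10 (SE) in BALB/c than in DBA/2 (adjusted p = 0.0462) and by 0.44 ± 0.10 in FVB/NJ than in DBA/2 (adjusted p = 0.0287). Fbxo44 was higher by 0.41 ± 0.10 in BALB/c than in DBA/2 (adjusted p = 0.0437) and by 0.52 ± 0.10 in FVB/NJ than in DBA/2 (adjusted p = 0.0126). With 1 pool left out, both calls against BALB/c were lost in all 8 cases (adjusted p of 0.0539 to 0.143); against FVB/NJ, that of Fbxo44 was lost without DBA/2 pool 2 (0.0565) and that of Fbxo2 was lost in 5 of 8 cases, without FVB/NJ pool 1 or 4 or DBA/2 pool 1, 2 or 3 (up to 0.0966). Over 5 strains their adjusted p was 0.166 and 0.156, and 0.0347 and 0.0222 without the 129X1/SvJ arrays. Elements named for neighbouring genes of 1 family can bind each other's transcripts, and this was not tested.

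The cullins, the scaffolds of these ligases, and the adaptor Skp1 did not pass. The lowest adjusted p of a cullin was 0.297, for 1 of 2 elements of Cul4a (9007), whose means ran from -0.14 in 129X1/SvJ to 0.24 in C57BL/6J, while the other element (8815), matched to the same sequence, ran from -0.08 in FVB/NJ to 0.14 in BALB/c and did not follow it (r = 0.09). Cul1, Cul3 and Cul4b had adjusted p of 0.781, 0.523 and 0.951. Skp1 (element 1815) had 0.18, 0.15, 0.19 and 0.47 in FVB/NJ, and all 4 pools lay above all 16 others, as for 0.269% of all elements. The highest of these others was 0.13, in BALB/c, so the gap was small. The difference from the other strains was 0.33 ± 0.10 (SE, adjusted p = 0.0887), and a second element (6512) differed by 0.32 ± 0.11 (adjusted p = 0.183) and followed the first (r = 0.71). Over 5 strains the adjusted p of the 2 elements was 0.128 and 0.292, and 0.0853 and 0.0951 without the 129X1/SvJ arrays.

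Skp2 is the F-box protein that marks the cell cycle inhibitor p27, and its 4 elements split by sequence. Elements 9535 and 9727, matched to 1 sequence, had their highest mean in 129X1/SvJ (0.26 and 0.35) and their lowest in FVB/NJ (-0.29 and -0.35). Elements 1948 and 2140, matched to another, had their lowest mean in 129X1/SvJ (-0.16, over 3 pools since 1 value was missing, and -0.14), and 1948 its highest in FVB/NJ (0.15). The strain means of elements from different sequences were inversely related, with r of -0.88 to -0.67 over 5 means, and those of the same sequence ran together (r = 0.94 and 0.84). None of the 4 passed over 5 strains (adjusted p of 0.193, 0.356, 0.509 and 0.979), so no direction can be given for Skp2. Over all 46 pairs of elements of 1 member gene, the median r over arrays was 0.75 for the 11 pairs with the same matched sequence and 0.05 for the 35 pairs with different ones. A call from 1 element is therefore a measurement of that element and may not hold for the gene.

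The SUMO modifier was represented by Sumo2 alone. Element 2593 had a range of 1.21 between strain means but the widest spread within strains of all members (pooled SD 1.43), with 2.56, -1.20, -2.14 and 1.31 in the pools of 129X1/SvJ. It did not pass (adjusted p = 0.885) and was higher by 1.72 in Cy5 than in Cy3 pools (adjusted p = 0.0115). The other element (9441) had means from -0.14 to 0.12 (adjusted p = 0.752). Ube2ql1 (element 2403), an E2-like protein, was the member with the most missing values, 2, both in 129X1/SvJ, whose other pools had -3.17 and 2.66.

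Of 29 elements of 21 deubiquitinating enzymes, 2 passed. Usp43 (element 3359) had -0.14, -0.14, -0.32 and -0.25 in FVB/NJ, against 0.21, 0.19, 0.18 and 0.06 in BALB/c, 0.11, 0.09, 0.15 and 0.12 in DBA/2 and 0.03, -0.03, 0.11 and 0.25 in C57BL/6J. The FVB/NJ pools lay below those of these 3 strains and overlapped those of 129X1/SvJ, which had -0.19, 0.05, -0.30 and 0.00. Its adjusted p was 0.0404, with a range of 0.37 between strain means (1.30-fold), and it was the narrowest of the 7 within strains (pooled SD 0.10). Without FVB/NJ pool 3 or 4 the adjusted p was 0.112 or 0.101. Usp48, a nuclear deubiquitinating enzyme, had 0.40, 0.18, 0.19 and 0.25 in C57BL/6J, against -0.21, -0.11, -0.28 and -0.16 in FVB/NJ (element 3518). The C57BL/6J pools of Usp48 lay above those of FVB/NJ and of BALB/c, whose highest was 0.16, and of DBA/2, whose highest was 0.11, and overlapped those of 129X1/SvJ, which had -0.03, 0.28, 0.20 and 0.44. It was higher by 0.45 ± 0.10 (SE) in C57BL/6J than in FVB/NJ (adjusted p = 0.0385), a call lost with any 1 of the 8 pools left out (adjusted p of 0.055 to 0.116). Its adjusted p over 5 strains was 0.0556, and 0.121, 0.105 and 0.105 without C57BL/6J pool 1, FVB/NJ pool 3 and DBA/2 pool 2. Usp22, the deubiquitinating enzyme of the SAGA coactivator, was named after its values were seen: its element (5621) had 0.46, 0.24, 0.09 and 0.27 in C57BL/6J, against -0.32, -0.46, -0.74 and -0.05 in FVB/NJ. The pools of these strains did not overlap, and the difference was 0.66 ± 0.15 (adjusted p = 0.0402), a call that held without FVB/NJ pool 4 and was lost without any other of these 8 pools (up to 0.117). Over 5 strains the adjusted p was 0.638 with 1 pool of 129X1/SvJ at -2.59, and 0.0197 without the 129X1/SvJ arrays.

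Single strains set against the other 4 gave 5 calls over 4 genes at an adjusted p under 0.05. In DBA/2, 1 element (Psmb6) was lower, against 0.869% of all elements, and 0 were higher, against 1.09%. In 129X1/SvJ, 1 (Psmb6) was higher, against 2.96% of all elements, and 3 (Fbxo3, Ube2w and Psme4) were lower, against 2.74%. In C57BL/6J 0 were higher and 0 lower (1.77% and 1.44% of all elements), in FVB/NJ 0 and 0 (1.22% and 1.34%) and in BALB/c 0 and 0 (0.914% and 1.12%). At an unadjusted p under 0.05 limma gave 12 elements as lower in DBA/2 (8.76%, against 5.43% of all) and 0 as higher (against 5.16%). In BALB/c 9 were higher (6.57%, against 4.91%) and 0 lower (against 4.62%), in FVB/NJ 10 were higher (against 5.62%) and 6 lower (5.87%), in 129X1/SvJ 8 higher (9.57%) and 10 lower (10.9%), and in C57BL/6J 5 higher (6.92%) and 3 lower (6.6%). The 26S subunits made up 6 of the 12 elements in DBA/2 and 5 of the 9 in BALB/c.

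The 10 pairs of strains share arrays, so their counts are given side by side. FVB/NJ against DBA/2 gave 4 elements (2.92%, against 3.73% of all elements): Psmb6, Fbxo3, Fbxo44 and Fbxo2. BALB/c against DBA/2 gave 3 (2.19%, against 3.42%): Psmb6, Fbxo44 and Fbxo2. C57BL/6J against FVB/NJ gave 2 (1.46%, against 3.13%), Usp48 and Usp22, and C57BL/6J against DBA/2 gave 2 (against 2.99%), Psmb6 and Fbxo3. FVB/NJ against BALB/c gave 2 (against 2.41%), Fbxo3 and Psme4, C57BL/6J against BALB/c 1 (0.73%, against 2.79%), Fbxo3, and 129X1/SvJ against DBA/2 1 (against 1.21%), Psmb6. The other 3 pairs, each with 129X1/SvJ, gave 0 by limma, against 1.3% (C57BL/6J), 0.78% (FVB/NJ) and 0.887% (BALB/c) of all elements. After adjustment no pair gave a larger share among these genes than among all elements. At an unadjusted p under 0.05, FVB/NJ against DBA/2 and BALB/c against DBA/2 gave 23 elements each (16.8%, against 16.3% and 15.5% of all elements), close to the background. C57BL/6J gave 10 against 129X1/SvJ (7.3%, against 11%), 15 against FVB/NJ (10.9%, against 14.8%), 16 against BALB/c (11.7%, against 14.1%) and 13 against DBA/2 (9.49%, against 13.5%). 129X1/SvJ gave 11 against FVB/NJ (8.03%, against 8.75%), 1 against BALB/c (0.73%, against 8.18%) and 8 against DBA/2 (5.84%, against 10.1%), and FVB/NJ against BALB/c gave 13 (9.49%, against 12.2%).

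Outside the families of the rule, 113 elements of 73 further genes of the ubiquitin pathway were tested, and 8 of them (7.08%), of 8 genes, passed over the 5 strains, against 11.3% of all elements. Nedd4l, a ligase that limits sodium channels at the cell surface, had the lowest adjusted p (0.000453), with means of 0.47 in FVB/NJ, 0.33 in BALB/c, -0.16 in C57BL/6J, -0.26 in DBA/2 and -0.41 in 129X1/SvJ. Syvn1, the ligase of the endoplasmic reticulum that removes misfolded proteins, had its highest mean in FVB/NJ (0.37) and its lowest in 129X1/SvJ (-0.50; adjusted p = 0.0136). Cops7a, a subunit of the COP9 signalosome, which takes NEDD8 off cullins, was lower by 0.44 in C57BL/6J than in the other strains at element 7444 (adjusted p = 0.00357), and all 4 C57BL/6J pools lay below all others there. Its second element (11204) differed by 0.13 in C57BL/6J (adjusted p = 0.724), so the call is one of an element and not of the gene. The membrane-anchored ubiquitin-like Ubl3 was lower by 0.37 in BALB/c (adjusted p = 0.00938). Brcc3 (K63-chain deubiquitination), Cdc26 (anaphase-promoting complex), Rnf7 (RING subunit of cullin ligases) and Senp3 (SUMO protease) had adjusted p of 0.0191, 0.0570, 0.0665 and 0.0760, with ranges of 0.45, 0.56, 0.41 and 0.33 between strain means. Second elements of Ubl3 (7177) and Rnf7 (8715) did not pass over 5 strains (adjusted p of 0.161 and 0.540). The proteasome assembly factor Pomp did not pass; its 3 elements had adjusted p of 0.101, 0.900 and 0.954.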

How the data were processed

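Prostate RNA of 20 pools was measured on 2-colour cDNA arrays against a common reference. The authors removed local background and applied print-tip loess within arrays, so that deposited values are normalized log2 ratios, sample over reference. Spot intensities were not used. An element entered the tests with up to 3 missing values and 2 or more values per strain (11159; 393 left out). The tests were run in limma 3.58.1 under R 4.3.3 (lmFit, eBayes): a moderated F test over 5 strain means (adjusted p at most 0.1), each strain against the mean of the other 4, and 10 pairs on their own arrays (adjusted p under 0.05), with Benjamini-Hochberg adjustment over all elements. The study's own test, SAM, was not run. No pool was imputed. Scripts were tested on simulated data. The number of arrays limits the precision.

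Named elements were all those past the F test, the called extremes of each strain, immunoproteasome, SUMO, cullin and Skp genes, further elements of called genes, the element with the most missing values and the one with the widest spread within strains; the lowest p chose examples of the role groups. The members, the lists and the grouping of the 26S proteasome were chosen with earlier results of these data known. Alternatives were other filters, scaling, a dye term, the pool number as a block, elements averaged by gene, other estimates of spread, array weights, 1 dye alone and leaving out each pool; leaving out 129X1/SvJ, and all settings for the 26S proteasome counts, were added after the data were seen.

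Promoter sequences came from RefSeq.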

Additional observations from a re-analysis of the deposited data

Results flagged for a closer look

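Within strains of 4 pools, the gap between the outermost pool and its nearest neighbour was compared with the whole range of the strain, for 29 named elements and the median of the 26S proteasome (148 groups of pools). It passed the critical value of Dixon's test in 6 of the 148 groups, no more than the about 1 in 20 that chance gives. Psme4 (element 9847) stood at -1.42 in 129X1/SvJ pool 4, with the other pools at 0.05 to 0.23. Psmb10 stood at -0.21 in 129X1/SvJ pool 1, against 0.34 to 0.38. Cul4a (element 9007) stood at -0.01 in C57BL/6J pool 3, against 0.30 to 0.34, and at 0.13 in 129X1/SvJ pool 3, against -0.26 to -0.20. Skp1 (element 1815) stood at 0.47 in FVB/NJ pool 4, against 0.15 to 0.19, and Skp2 (element 9727) at 0.56 in DBA/2 pool 4, against 0.08 to 0.15.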

How the results depend on the processing

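Psmb6 passed over 5 strains under all 33 alternatives run (adjusted p of 5.14e-08 to 0.033). Over the alternatives, 26 to 30 of the 31 elements of the 26S proteasome were lower in DBA/2 and 25 to 30 higher in BALB/c. Of the 14 constitutive core elements, 13 or 14 were lower in DBA/2. Averaged by gene it was 24 and 23 of 25 genes. Missing-value filters, a dye term, the pool number as a block and other estimates of spread left these differences unchanged. Their counts of 28, 29 and 14 were therefore fixed in advance.

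The count over 5 strains (7) was 13 after scaling the arrays to 1 median absolute deviation (9.49%, against 14.2% of all elements), 12 after quantile normalization (8.76%, against 14.5%), 11 with a dye term (8.03%, against 15.6%), 23 with array weights (16.8%, against 25.1%), 4 and 2 on Cy3 or Cy5 arrays alone (2.92% and 1.46%, against 7.34% and 2.76%), 13 without 129X1/SvJ (9.49%, against 13.2%), and 5 to 14 leaving out 1 pool, with 11 without 129X1/SvJ pool 1 (all 7 remained) and 14 without pool 4 (6 of the 7 remained). Of the 7, Ube2w was lost under scaling (adjusted p = 0.152), quantile normalization (0.173) and gene averages (0.180), Psme4 under gene averages (0.254) and Fbxo3 without moderation (0.106); on 1 dye alone, Psmb6 and Fbxo3 (Cy3) or Psmb6 (Cy5) remained. The labels do not say that pool numbers mark a shared batch, and they go with the dye. Deviations of same-numbered pools of different strains correlated at 0.0823 to 0.435 where the dye was the same (24 pairs, 0 with 129X1/SvJ, median 0.302). Where the dye was opposite they correlated at -0.339 to 0.0599 (16 pairs, all with 129X1/SvJ). For pools of different number and the same dye the median was 0.213 (56 pairs, 32 with 129X1/SvJ). These medians therefore rest on unlike sets of arrays. With the pool number as a replicate block the counts were 11 over 5 strains (8.03%, against 12.9% of all elements), 1 higher in FVB/NJ, 2 lower in DBA/2, 8 between FVB/NJ and DBA/2 and 5 between BALB/c and DBA/2.

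Elements lower in 129X1/SvJ (3) were 1 under scaling, quantile normalization or gene averages, and 0 with array weights or Cy5 alone; those higher there (1) were 0 with array weights or Cy3 alone and 2 with Cy5 alone. Elements lower in DBA/2 (1) were 5 under both normalizations, 3 without moderation, 8 with array weights and 4 without 129X1/SvJ, and 1 was higher with array weights. Elements higher in FVB/NJ (0) were 4, 3, 3, 1 and 2 with scaling, quantile normalization, array weights, Cy3 alone and without 129X1/SvJ; those lower there (0) were 1 with these normalizations, a dye term, gene averages, no moderation or array weights, and 2 without 129X1/SvJ. In BALB/c 1 element was higher under both normalizations, without moderation, with array weights and without 129X1/SvJ, and 1 was lower in the last. In C57BL/6J 1 was higher with array weights and 2 without 129X1/SvJ. Leaving out 1 pool gave 0 to 2 higher in C57BL/6J and 0 lower, 1 to 2 higher and 2 to 4 lower in 129X1/SvJ, 0 to 1 higher and 0 to 2 lower in FVB/NJ, 0 to 1 each in BALB/c, and 0 to 1 higher and 1 to 2 lower in DBA/2.

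With all arrays in 1 fit, the pairs gave 3 for C57BL/6J against 129X1/SvJ, 0 against FVB/NJ, 0 against BALB/c and 1 against DBA/2, 3 for 129X1/SvJ against FVB/NJ, and 1 each for FVB/NJ against BALB/c, FVB/NJ against DBA/2 and BALB/c against DBA/2. A dye term gave 9 for FVB/NJ against DBA/2 and 6 for BALB/c against DBA/2. Leaving out 1 pool gave 0 to 1 for C57BL/6J against 129X1/SvJ and against FVB/NJ, 1 against BALB/c, 2 to 3 against DBA/2; 0 to 1 for 129X1/SvJ against FVB/NJ and BALB/c, 1 to 2 against DBA/2; and 1 to 2 for FVB/NJ against BALB/c, 2 to 5 against DBA/2 and 1 to 2 for BALB/c against DBA/2. The count of other pathway elements (8) was 17 under both normalizations, 13 with a dye term, 25 with array weights, 2 and 4 on Cy3 or Cy5 arrays alone and 5 to 15 leaving out 1 pool. Elements that differed by dye (30) were 47 with array weights and 22 to 36 leaving out 1 pool. Ube2ql1 turned, from DBA/2 above 129X1/SvJ to below it, at -2.11 with Cy5 alone and -2.04 without 129X1/SvJ pool 3, and stood at 3.79 without pool 4, since 1 pool then stood for 129X1/SvJ. Other causes were not tested.

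Ratios of about 0.3 or less on the log2 scale were at the size of the spread between pools. The fit assumed 1 spread, and the wider spread of 129X1/SvJ bears on the F test and on that strain's differences: on simulated data with each strain's own spread, false calls of the F test over 5 strains were above the set rate. A call from 1 cDNA element is open to related transcripts, and spot intensities, which would show signal over background, were not used.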
